A study of Homo sapiens with 6 samples.

Results

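The genes described here are 9 that encode glycoproteins of the cell surface, chosen by name: CD44, CD24, EPCAM, MUC1, CD9, CD59, CD55, CD46 and PROM1. Every probe set whose platform annotation gives 1 of these symbols alone was taken, which gave 29 of the 22215 probe sets tested and 9 of the 11963 genes named. No probe set with several symbols held a member. RNA was measured on 6 single-colour Affymetrix 3′ expression arrays, 1 per sample. On 3 of them the cells were labelled MALT1 and on the other 3 mock. Cells of the first group are labelled as carrying a stably transfected cDNA of wild-type, full-length MALT1, the paracaspase of NF-kappaB signalling, and those of the second as carrying the vector alone. Both groups are given as HSC2, a long-established human cell line from a squamous carcinoma of the mouth, grown in DMEM with fetal bovine serum and antibiotics. The study compared them to find genes that respond to MALT1. Nothing in the labels says whether each transfected line was 1 clone or a pool, or whether replicates were grown as separate cultures, so a p-value here takes in just the spread among these 6 samples, which may be technical.

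These proteins share a place at the plasma membrane and little else. CD44 is the main receptor for the matrix sugar hyaluronan and is abundant on basal and squamous epithelial cells, and its pre-mRNA is spliced to standard and variant forms. CD24 is a short, heavily glycosylated protein held by a glycosylphosphatidylinositol (GPI) anchor, and low CD24 with high CD44 is a widely used description of basal-like or stem-like carcinoma cells. EPCAM is a homophilic adhesion protein of simple epithelia and many carcinomas, MUC1 is a transmembrane mucin of the apical surface, and CD9 is a tetraspanin that organises integrins and other partners in the membrane. CD59, CD55 and CD46 protect cells from complement: CD59 blocks assembly of the membrane attack complex, CD55 speeds the decay of the convertases, and CD46 is a cofactor for cleavage of C3b and C4b. PROM1 (CD133) is a pentaspan protein of membrane protrusions that is used as a progenitor cell marker.

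Stretches before the transcription start are shown for the 4 genes with a window in the RefSeq promoter table (build GRCh38.p14) in which most or all probe sets changed, each as the 250 bases upstream of the start nearest to the gene's annotated 5′ end. Windows were found for 8 of the 9 genes, all but EPCAM, and the CD24 window lies 1228 bases from that end. Capitals mark matches, on either strand, to the GC box GGGCGG bound by SP1, the E-box CAGGTG bound by SNAI and ZEB repressors, the TATA box TATAAA and the NF-kappaB consensus. The AP-1 motif TGANTCA was searched too and had no match in these 4 windows.
CD44, chr11:35138921-35139170, plus strand: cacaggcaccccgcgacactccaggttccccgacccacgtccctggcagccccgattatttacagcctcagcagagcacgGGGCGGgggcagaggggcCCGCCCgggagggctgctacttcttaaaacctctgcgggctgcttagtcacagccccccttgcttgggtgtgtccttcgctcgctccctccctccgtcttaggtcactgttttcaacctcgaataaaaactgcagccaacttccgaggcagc
CD59, chr11:33736480-33736729, minus strand: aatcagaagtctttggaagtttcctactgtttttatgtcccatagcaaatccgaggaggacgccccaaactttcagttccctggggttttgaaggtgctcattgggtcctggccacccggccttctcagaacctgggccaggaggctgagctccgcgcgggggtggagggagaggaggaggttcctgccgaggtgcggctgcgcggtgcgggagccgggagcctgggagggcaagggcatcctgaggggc
MUC1, chr1:155192916-155193165, minus strand: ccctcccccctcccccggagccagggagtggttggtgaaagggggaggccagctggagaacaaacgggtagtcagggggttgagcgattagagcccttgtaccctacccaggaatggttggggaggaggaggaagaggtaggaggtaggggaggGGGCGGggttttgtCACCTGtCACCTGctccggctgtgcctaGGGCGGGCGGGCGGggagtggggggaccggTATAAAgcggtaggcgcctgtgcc
CD24, chr6:106975628-106975877, minus strand: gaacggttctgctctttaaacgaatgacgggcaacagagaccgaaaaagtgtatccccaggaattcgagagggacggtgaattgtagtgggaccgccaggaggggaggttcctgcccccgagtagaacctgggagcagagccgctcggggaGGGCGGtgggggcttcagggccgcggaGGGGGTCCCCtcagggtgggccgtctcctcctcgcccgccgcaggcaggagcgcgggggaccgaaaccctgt

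The MUC1 window held 2 E-boxes side by side, 1 TATA box and 4 GC boxes, 3 of which overlap each other. Over the 15842 protein-coding genes with such a window, 17.1% had an E-box, 9.35% a TATA box and 55.8% a GC box. The CD24 window held 1 GC box and 1 NF-kappaB match, a motif found in 5.69% of all windows, and the CD44 window held 2 GC boxes alone. None of the motifs, AP-1 included (5.00% of all windows), was found in the CD59 window. A match is a description of the letters and says nothing about whether a factor binds there in these cells.

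Signals are linear intensity values scaled by the authors, and a signal at or below 17.6 was called dim. That level is the maximum over the arrays of the 3 trp controls, probe sets for a bacterial transcript, and was reached on MALT1 replicate 3. That array stood apart from the others: 25.6% of its probe sets were at or below 17.6, against 31.7% to 33.3% on the other 5 arrays, its median signal was 79.0, against 64.1 to 70.6, and its ACTB 3′/5′ ratio was 4.46, against 3.59 to 3.98. Without it the highest trp signal was 14.7, and the mock arrays of 207847_s_at and 213693_s_at of MUC1 were still at or below that level. Differences were tested by limma on log2(signal + 1) as arrays labelled MALT1 minus arrays labelled mock, with Benjamini-Hochberg adjustment over all 22215 probe sets and a threshold of 0.05 on the adjusted p. The arrays differed widely, with 35.6% of all probe sets past that threshold (18.6% higher and 17.0% lower, or 4130 and 3787 probe sets). After each array was centred on its median, the balance turned to 3179 higher and 4193 lower. The MALT1 transcript was not higher on the arrays labelled MALT1. Its brightest probe set, 208309_s_at, averaged 182 with an SD of 10.2 there and 253 with an SD of 4.34 on the mock arrays (n = 3 each; log2 fold change −0.47, limma adjusted p = 0.0104). On 210017_at the means were 120 and 254 (log2 fold change −1.08, adjusted p = 0.0022), and on 210018_x_at they were 179 and 217 (log2 fold change −0.28, adjusted p = 0.0969, not passed). Whether these probe sets lie within the transfected cDNA was not analysed here. Of 12 squamous epithelium markers listed, 8 had a probe set of their own. Of these, 7 were lower and 0 higher, where 19.2% of all genes were lower. Summed over the 8, they gave 13751 to 15740 across the arrays labelled MALT1, against 33254 to 38309 across those labelled mock. Of 12 luminal breast epithelium markers, 11 were higher and 0 lower, where 21.1% of all genes were higher. Summed over the 12, they gave 76967 to 85412 across the arrays labelled MALT1, against 8903 to 9648 across those labelled mock. None of the squamous markers was dim on all arrays labelled mock, and KRT16 was dim on all arrays labelled MALT1. KRT19, FOXA1, TFF1, SPDEF and PGR were dim on all arrays labelled mock, and PGR on all 6. GATA3 averaged 12862 on the arrays labelled MALT1 and 191 on the mock arrays, and ESR1 averaged 1765 and 115. These marker levels on the arrays labelled MALT1 go against the labels, under which both groups are oral squamous HSC2 cells. The MALT1 transcript was not higher there either, but whether its probe sets can detect the cDNA is not known. The 2 groups may be mislabelled or different cells, which was not tested. The groups are therefore called by their labels, and no difference below is given as a response to MALT1. The markers move with every result below, and their part in it was not tested.

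Of the 29 probe sets, 11 were higher, 11 lower and 7 did not pass. Over all probe sets, 18.6% were higher and 17.0% lower. The 11 lower were 7 of CD44 and 4 of CD59, and 6 of the 11 higher were of CD24. A change of at least 2-fold was seen in 3 probe sets that were higher, where 9.46% of all probe sets were, and in 11 that were lower, where 8.57% were. These 11 are the same CD44 and CD59 probe sets, so they are repeated readings of 2 genes. Counted as genes by the probe set with the highest mean signal, 3 were higher (CD24, EPCAM and MUC1), 2 were lower (CD44 and CD59) and 4 did not pass (CD9, CD55, CD46 and PROM1), where 40.4% of all genes passed, 21.1% higher and 19.2% lower. The groups did not overlap in 24 of the 29 probe sets, against 49.7% of all probe sets. These 24 include 8 of CD44, 6 of CD24 and 4 of CD59. The median log2 fold change over the 29 was 0.06, and over all probe sets it was 0.08. In bulk RNA, fewer cells that express a gene and less of its RNA per cell cannot be told apart.

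**Figure D1:**
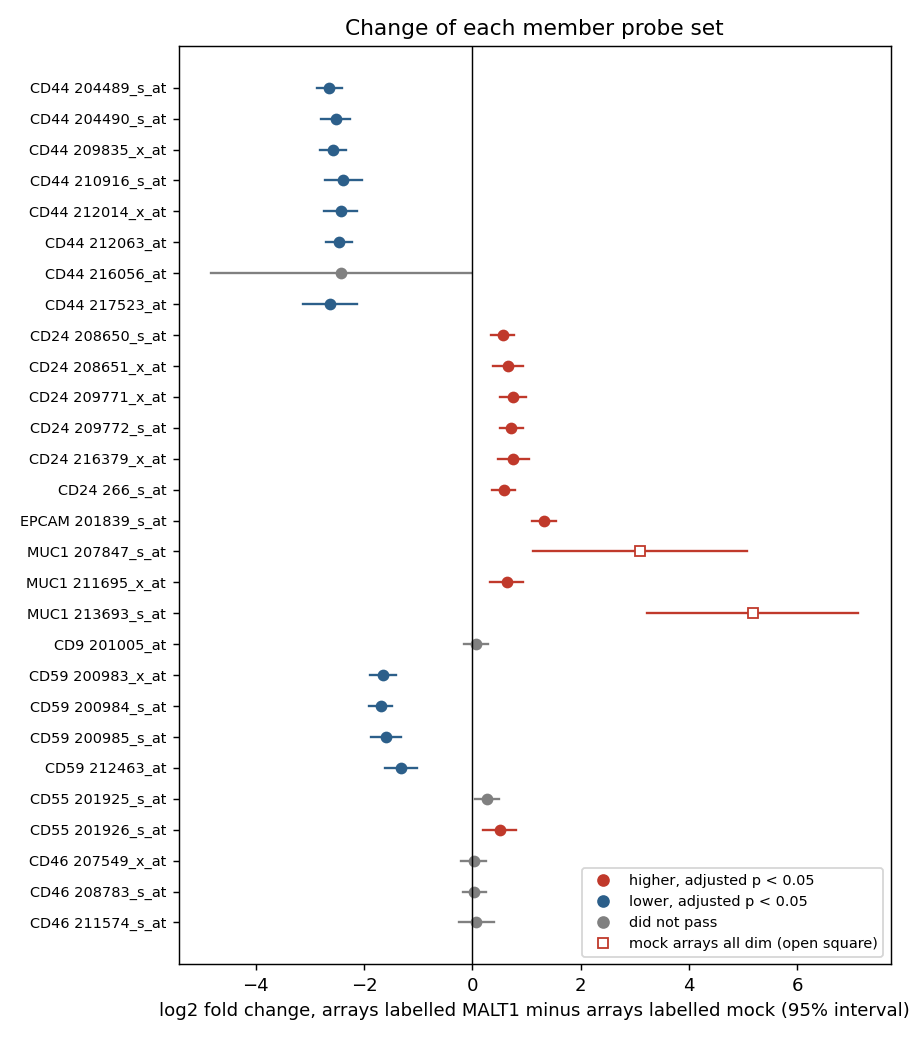
Log2 fold change of each member probe set, arrays labelled MALT1 minus arrays labelled mock (x axis), with 95% intervals from limma, 1 probe set per line, n = 3 arrays per group. PROM1, dim on all 6 arrays, is left out. Open squares are 2 MUC1 probe sets that were dim on all arrays labelled mock, whose fold is only a bound. The CD44 and CD59 probe sets lie left of 0, those of CD24, EPCAM and MUC1 right of 0, and those of CD9 and CD46 on it.

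CD44 was the member with the largest fall. Its brightest probe set, 212063_at, read 1739, 1958 and 1686 on the arrays labelled MALT1, against 10158, 9828 and 9697 on the arrays labelled mock. All 3 arrays labelled MALT1 lay far below all 3 labelled mock, with no overlap. The fall was 5.52-fold (log2 fold change −2.47 ± 0.10 SE, limma adjusted p = 9.4e-05), and 275 of the 11963 genes fell at least as far, CD44 itself included. CD44 had 8 probe sets, and 7 of them fell by a like amount, between 5.21-fold (210916_s_at) and 6.24-fold (204489_s_at). Over these 7 the log2 fold change ranged from −2.64 to −2.38, and their 95% intervals overlap one another. The probe sets with s_at or x_at suffix and those without (212063_at and 217523_at) fell alike, and 217523_at, the dimmest of the 7, read 52.9, 53.4 and 78.8 in the first group and 414, 338 and 388 on the arrays labelled mock. The eighth, 216056_at, was near the level for dim signals, at 2.47, 0.799 and 20.5 on the arrays labelled MALT1 and 27.5, 23.7 and 28.1 on those labelled mock. Its difference of −2.42 ± 0.94 (log2, SE) had an adjusted p of 0.112, but it passed when MALT1 replicate 3, the array with 20.5, was left out (log2 fold change −3.45, adjusted p = 0.0038). Which exons each probe set covers was not analysed here, so standard and variant forms are not told apart.

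CD24 rose by less, but in all 6 of its probe sets. On 209771_x_at, the brightest, it read 11355, 11063 and 12136 on the arrays labelled MALT1 and 6506, 6625 and 7324 on the arrays labelled mock. This was a rise of 1.69-fold (log2 fold change 0.76 ± 0.09 SE, limma adjusted p = 0.0029), which 2510 of the 11963 genes matched or exceeded. The other 5 probe sets rose between 1.48-fold and 1.69-fold, and in none of the 6 did the groups overlap. The least of them, 208650_s_at, read 3985, 4121 and 3750 on the arrays labelled MALT1 and 2666, 2716 and 2649 on those labelled mock. All 6 carry an s_at or x_at suffix, so they can bind more than 1 transcript, and CD24 is known to have near-identical pseudogene copies. What share of the signal came from such copies was not analysed here.

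EPCAM, measured by 1 probe set, rose 2.50-fold. It read 10182, 11305 and 10724 on the arrays labelled MALT1 and 4442, 4122 and 4289 on the arrays labelled mock (log2 fold change 1.32 ± 0.09 SE, limma adjusted p = 0.00036). Both groups were bright and their arrays lay close together, with an SD of 561.5 around a mean of 10737 on the arrays labelled MALT1 and of 159.9 around 4284 on those labelled mock. A rise at least as large was seen in 1276 of the 11963 genes.

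MUC1 was dim on the arrays labelled mock and clearly measured on those labelled MALT1. Its brightest probe set, 213693_s_at, read 271, 347 and 310 on the arrays labelled MALT1 and 14.6, 1.58 and 14.4 on the arrays labelled mock, and all 3 mock arrays were below 17.6. It was therefore at least 17.5-fold higher, the geometric mean of the arrays labelled MALT1 over 17.6 (limma adjusted p = 0.0052). The second probe set, 207847_s_at, read 62.8, 61.0 and 64.5 on the arrays labelled MALT1, against 12.6, 1.19 and 12.7 on the arrays labelled mock and was at least 3.56-fold higher (adjusted p = 0.0308). Its call was lost without MALT1 replicate 1, 2 or 3 (adjusted p = 0.0828 to 0.0849), although the groups stayed well apart. The third, 211695_x_at, read 33.3, 28.7 and 32.1 on the arrays labelled MALT1, against 17.8, 21.8 and 20.1 on the mock arrays, which is only just above the level for dim signals. It rose 1.55-fold (adjusted p = 0.0112), and with quantile normalization it no longer passed (log2 fold change 0.36, adjusted p = 0.152). The 3 probe sets have the same direction but not the same size, and only a bound is known for the first 2.

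**Figure D2:**
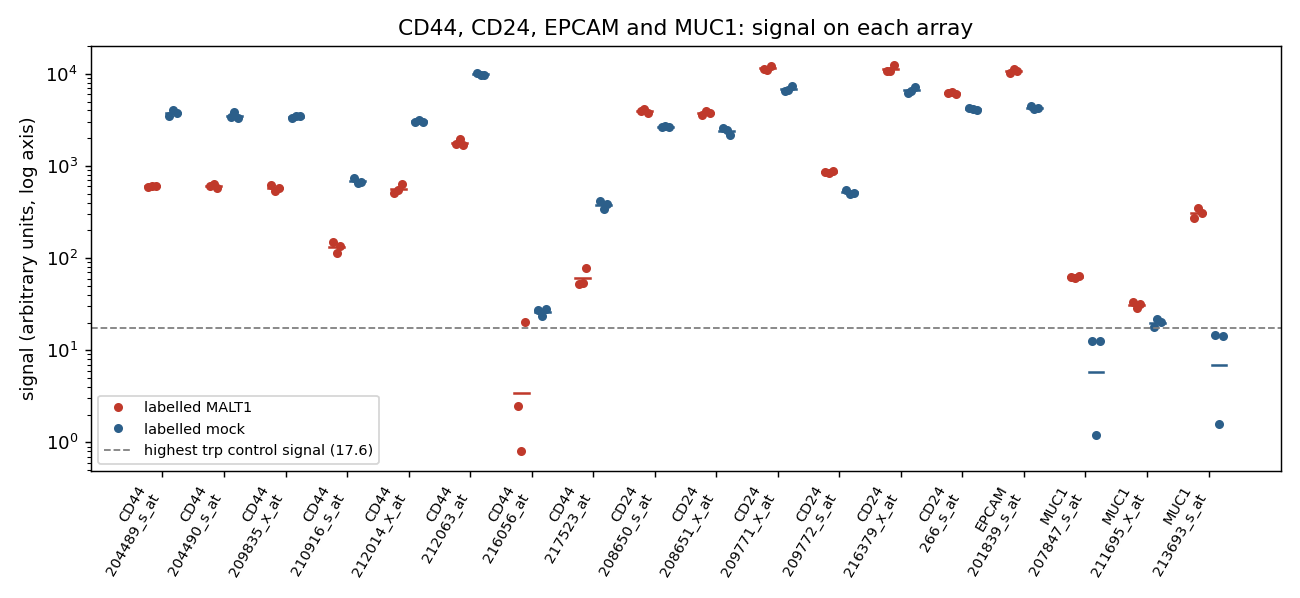
Signal of each probe set of CD44, CD24, EPCAM and MUC1 (y axis, arbitrary units, log axis), with 1 point per array, arrays labelled MALT1 left (red) and arrays labelled mock right (blue). Short bars are geometric means and the dashed line is the level for dim signals, 17.6. CD44 points are lower on the arrays labelled MALT1 in all 8 probe sets, and the mock points of 2 MUC1 probe sets lie under the dashed line.

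The balance between CD24 and CD44 within each array shifted with the group. The brightest CD24 probe set minus the brightest CD44 probe set, on the log2 scale, was 2.71, 2.50 and 2.85 on the arrays labelled MALT1 and −0.64, −0.57 and −0.40 on the arrays labelled mock. The level of 1 probe set against another carries no meaning of its own, but its change between arrays shows that the 2 genes changed unequally. The mean difference was higher on the arrays labelled MALT1 by 3.22 on the log2 scale, with all 3 arrays of a group on the same side (exact two-sided permutation p = 0.10, the smallest that 3 arrays against 3 allow). For EPCAM minus CD44 the values were 2.55, 2.53 and 2.67 on the arrays labelled MALT1, against −1.19, −1.25 and −1.18 on the mock arrays, a change of 3.79 (exact permutation p = 0.10). In both pairs the 2 genes had moved in opposite directions without overlap, so this p was fixed by those values and adds no support. For CD24 minus CD9 the change was 0.69, with means of 0.73 ± 0.04 on the arrays labelled MALT1 and 0.04 ± 0.03 on the arrays labelled mock (SD, n = 3 each; exact permutation p = 0.10). CD24 had risen without overlap while CD9 stayed nearly level, so this p too restates the values of the genes and adds no support. These 3 differences share probe sets, and as their p-values are equal, Benjamini-Hochberg adjustment over the 3 leaves each at 0.10.

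CD9, in contrast to CD24 and EPCAM, showed no difference that passed. It read 6703, 6864 and 7245 on the arrays labelled MALT1 and 6319, 6601 and 7015 on the arrays labelled mock, so the groups overlapped. The log2 fold change was 0.06 with a 95% interval of −0.16 to 0.29 (limma adjusted p = 0.644), and it was −0.07 after each array was centred on its median. CD9 was bright in both groups, far above the level for dim signals.

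Among the 3 complement regulators, CD59 fell clearly, CD55 differed little and CD46 showed no difference that passed. CD59 read 1870, 1851 and 1601 on the arrays labelled MALT1 and 5134, 5210 and 5765 on the arrays labelled mock on its brightest probe set, 200985_s_at. This was a fall of 3.03-fold (log2 fold change −1.60 ± 0.11 SE, limma adjusted p = 0.00039), and 706 of the 11963 genes fell at least as far. All 4 CD59 probe sets fell, by 2.49-fold to 3.24-fold, with no overlap between the groups in any of them. The smallest fall was on 212463_at, which read 253, 318 and 287 on the arrays labelled MALT1, against 758, 677 and 705 on the mock arrays, and has no s_at or x_at suffix. Its 95% interval, −1.62 to −1.02 on the log2 scale, overlaps those of the other 3.

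CD55 was slightly higher on the arrays labelled MALT1, at the edge of the threshold. On 201925_s_at it read 887, 882 and 804 on the arrays labelled MALT1 and 714, 727 and 691 on the arrays labelled mock, 1.21-fold apart without overlap (limma adjusted p = 0.0639, not passed). With a pseudocount of 16 or 50, with quantile normalization or with the dimmer probe sets left out this probe set passed (adjusted p = 0.0426, 0.0169, 0.0252 and 0.0118). After median centring it did not pass (log2 fold change 0.14, adjusted p = 0.466). Nor did it pass with the replicate number as a block (adjusted p = 0.138) or without any 1 array (adjusted p = 0.0516 to 0.175). On 201926_s_at CD55 read 340, 382 and 340 on the arrays labelled MALT1, against 263, 268 and 220 on the mock arrays, and rose 1.42-fold (adjusted p = 0.0257). That call was lost when any 1 of the 6 arrays was left out (adjusted p = 0.0512 to 0.0804) and after median centring (adjusted p = 0.0919). CD46, encoded close to CD55 on chromosome 1, showed no difference that passed in any of 3 probe sets. Its brightest, 208783_s_at, read 2584, 2597 and 2431 on the arrays labelled MALT1 and 2568, 2472 and 2377 on the arrays labelled mock, with a log2 fold change of 0.04 and a 95% interval of −0.17 to 0.25 (adjusted p = 0.777). The arrays of the 2 groups overlapped in all 3 CD46 probe sets, and the sign of each small difference turned negative after median centring. Between CD55 and CD46 lie the complement receptor genes CR2 and CR1 and the gene CR1L. CR2 was dim on all 6 arrays, CR1 did not pass, and CR1L was not measured by a probe set of its own.

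PROM1 was at or below 17.6 on every array. It read 6.88, 11.6 and 1.93 on the arrays labelled MALT1 and 8.43, 0.599 and 1.63 on the arrays labelled mock, so no fold is given (limma adjusted p = 0.464). Its level could not be resolved from the control signal in either group.

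**Figure D3:**
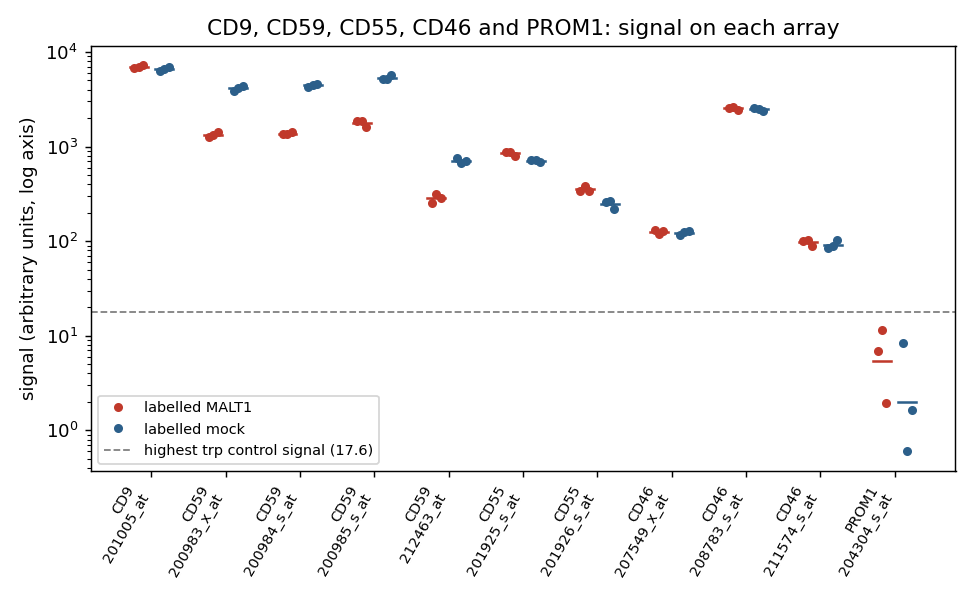
Signal of each probe set of CD9, CD59, CD55, CD46 and PROM1 (y axis, arbitrary units, log axis), with 1 point per array, arrays labelled MALT1 left (red) and arrays labelled mock right (blue). Short bars are geometric means and the dashed line is 17.6, the level for dim signals. The CD59 groups are apart in all 4 probe sets, the CD9 and CD46 groups overlap, and PROM1 lies under the line on all 6 arrays.

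Of the genes that act with CD44, more fell than rose. Of 14 measured genes for hyaluronan synthesis and turnover, CD44 anchoring, splicing and shedding, 8 fell, 2 rose and 4 did not pass, and the median log2 fold change was −0.78 (−0.44 once dim genes are set to their bound). For comparison, 19.2% of all genes fell, and the median over all genes was 0.08. The 3 linkers that tie the tail of CD44 to actin all fell. Moesin (MSN) averaged 503.5 on the arrays labelled MALT1 and 4570 on the mock arrays (n = 3 each; log2 fold change −3.17, SE 0.13, limma adjusted p = 0.0001). Ezrin (EZR) fell by 1.31 and radixin (RDX) by 1.14 on the log2 scale, in all 5 and all 3 of their probe sets. HMMR, a second hyaluronan receptor and a mitotic spindle protein, fell by 1.07 in log2. MMP14, a membrane protease that can cleave CD44, and ADAM10, one of its sheddases, fell by 2.17 and 0.48, ADAM10 on 2 of its 3 probe sets. ADAM17, also on the list, did not pass on its brightest probe set (log2 fold change 0.19), but 2 of its 3 probe sets were higher. ESRP1, the epithelial splicing factor that favours variant CD44, rose by 0.33, and MMP9, a gelatinase that can dock on CD44, rose by 1.60 on the log2 scale. HAS2, which makes hyaluronan, was dim on all arrays labelled MALT1 and at least 1.58-fold lower (adjusted p = 0.0426).

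Partners of EPCAM went both ways. There were 11 with a probe set, of which 5 rose and 2 fell while 4 did not pass, and their median was −0.15 on the log2 scale. Over all genes, 21.1% rose and 19.2% fell. CLDN7, the claudin that binds EPCAM directly, rose to 2245 ± 298 on the arrays labelled MALT1, against 77.5 ± 10.8 on the mock arrays (log2 fold change 4.84, SE 0.15, adjusted p = 6.8e-05). SPINT1 and SPINT2, inhibitors of membrane serine proteases, rose by 0.85 and 0.84, and ST14, the protease matriptase, by 0.62 on the log2 scale. ST14 passed on 2 of its 3 probe sets. FHL2 and LEF1, nuclear partners of the cleaved EPCAM tail, fell by 2.83 and 1.56, LEF1 on 2 of its 3 probe sets. The third nuclear partner, β-catenin (CTNNB1), did not pass (log2 fold change −0.30, adjusted p = 0.136). Of the γ-secretase genes that cut the EPCAM tail, APH1A rose by 0.72, and PSEN2, NCSTN and PSENEN did not pass.

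The mucin list separated into mucins that were mostly dim and glycosylation enzymes that moved in both directions. Of 22 measured genes, 7 rose and 4 fell while 11 did not pass, and the median log2 fold change was 0.30 (0 once dim genes are set to their bound). For comparison, 40.4% of all genes passed, 21.1% higher and 19.2% lower. None of the 8 other mucins on the list passed, and MUC5B, MUC7 and MUC16 were dim on all 6 arrays. Among the GALNT enzymes, which start mucin-type O-glycans, GALNT14 read 607, 630 and 666 on the arrays labelled MALT1 and 16.2, 17.8 and 15.7 on those labelled mock (adjusted p = 2.9e-05), where 2 of the 3 mock arrays were dim. GALNT6 rose to 695.5 ± 99.6 on the arrays labelled MALT1, against 112 ± 11.8 on those labelled mock, while GALNT2 fell by 1.69 on the log2 scale. The sialyltransferase ST3GAL1, which caps the core 1 glycan, rose by 2.60, whereas C1GALT1, which builds core 1, fell by 1.17, and GCNT1, which branches it to core 2, fell by 1.12.

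Other tetraspanins went both ways, and the measured partners of CD9 were lower. Of 16 measured genes, 9 fell and 2 rose while 5 did not pass, where 19.2% of all genes fell and 21.1% rose, and their median log2 fold change was −0.59. Among the 12 tetraspanins 5 fell, and the 4 partners (ITGA3, ITGA6, ITGB1 and HBEGF) all fell. The laminin-binding integrin chains ITGA6 and ITGA3 fell by 2.59 and 2.04, and the tetraspanin CD151, which binds both, by 1.26 on the log2 scale. The tetraspanin CD82 fell to 148 ± 36.7, against 584 ± 56.1 on the arrays labelled mock. CD81 fell by 0.56 and the CD9 partner HBEGF, a growth factor precursor, by 0.90 on the log2 scale, HBEGF on 2 of its 3 probe sets. TSPAN13 rose to 7979 ± 57.8 on the arrays labelled MALT1, against 3082 ± 166 on those labelled mock (adjusted p = 0.00028), and the endosomal tetraspanin CD63 rose by 0.44. The integrin chain ITGB1 fell on its brightest probe set by 0.63, and that was the 1 of its 5 probe sets that passed.

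In the complement list, 17 genes were measured, of which 5 rose, 3 fell and 9 did not pass, where 40.4% of all genes passed, 21.1% higher and 19.2% lower. Clusterin (CLU), a soluble inhibitor of the membrane attack complex, rose on each of 3 probe sets. The brightest gave 1034 ± 64.8 on the arrays labelled MALT1, against 218.5 ± 9.59 on the mock arrays (log2 fold change 2.24 with SE 0.09, adjusted p = 0.0001). C3 rose by 1.11 on the log2 scale, and the classical pathway protease C1R fell by 1.79. SERPING1 passed but was dim on all 6 arrays, so no fold is given. Of the rest, 4 were dim on all 6 arrays, which limits what the list can show.

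GPI anchoring, which CD24, CD59 and CD55 depend on, had genes that passed in both directions. Of 18 measured genes of anchor synthesis and attachment, 2 rose, 3 fell and 13 did not pass, and their median log2 fold change was 0.06, where 40.4% of all genes passed and the median over all genes was 0.08. DPM3 and PIGF rose by 2.28 and 1.04, and PIGN, PIGK and PIGO fell by 1.33, 0.47 and 0.47 on the log2 scale. PIGO passed on 1 of its 3 probe sets. PIGA, needed for the first step, did not pass (log2 fold change 0.14, adjusted p = 0.413). Of 21 other GPI-anchored surface proteins, 4 rose, 4 fell and 13 did not pass, with a median log2 fold change of −0.03. Over all genes, 21.1% rose and 19.2% fell. NT5E (CD73), an ectonucleotidase, fell to 233 ± 14.6 on the arrays labelled MALT1, against 2622 ± 53.3 on the mock arrays (log2 fold change −3.49, SE 0.09, adjusted p = 5.3e-05). PLAUR fell by 1.24 on the log2 scale, and all 3 of its probe sets were lower. LYPD3 rose by 2.63, and the carcinoembryonic adhesion proteins CEACAM6 and CEACAM5 rose too. CEACAM6 read 477 ± 57.3 on the arrays labelled MALT1, against 16.8 ± 9.63 on the mock arrays, of which 2 were dim, and CEACAM5, dim on all arrays labelled mock, was at least 2.88-fold higher.

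**Figure D4:**
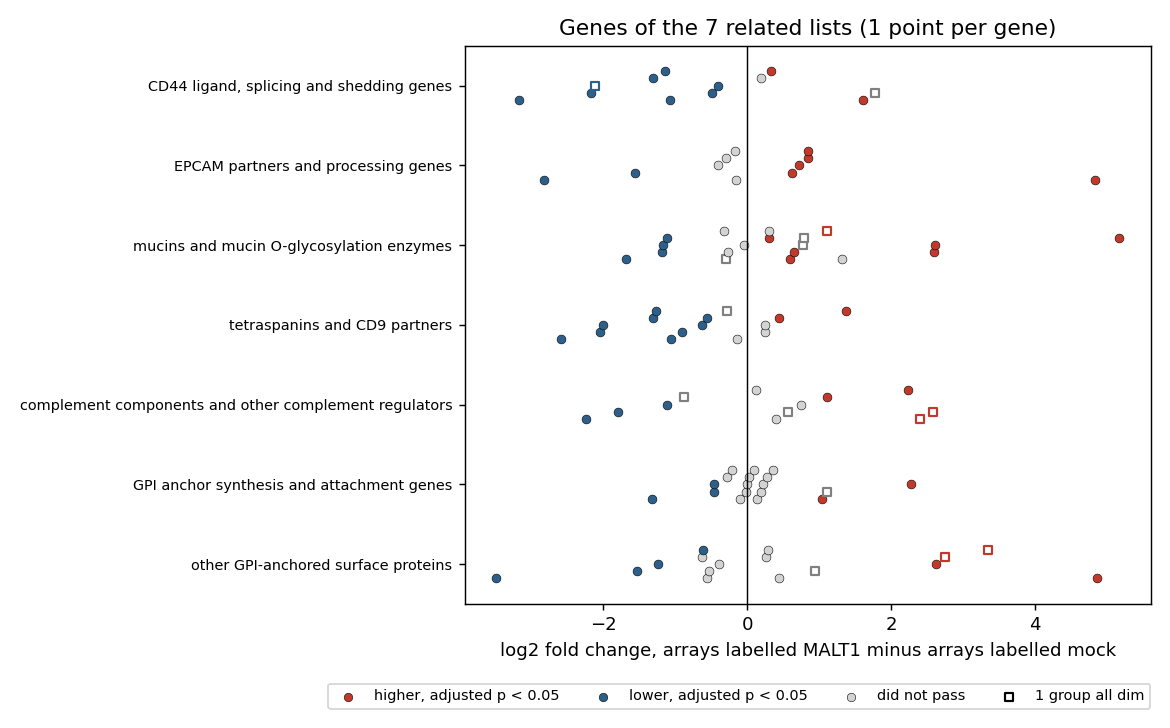
Log2 fold change, arrays labelled MALT1 minus arrays labelled mock (x axis), of each gene in 7 lists of genes that act with the members, 1 point per gene by its brightest probe set, genes dim on all 6 arrays left out. Red genes were higher and blue genes lower at an adjusted p under 0.05, grey genes did not pass, and open squares were dim on all arrays of 1 group. More genes are lower than higher among the CD44 and tetraspanin lists, and most GPI anchor genes lie near 0.

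CD59 and CD44, the 2 members that fell, lie near each other on the short arm of chromosome 11, so the genes between them were examined after these values were known. RefSeq places 10 protein-coding genes between CD59 and CD44, all of them measured. Of these, 6 were lower, 2 higher and 2 did not pass, where 19.2% of all genes were lower, 21.1% higher and 40.4% passed. The epithelial ETS factor gene EHF fell to 38.9 ± 8.85 on the arrays labelled MALT1, against 242 ± 6.23 on the mock arrays (log2 fold change −2.63, SE 0.18, limma adjusted p = 0.00038). Next to it, ELF5, an ETS factor of luminal breast and other glandular epithelia, was dim on all arrays labelled mock and at least 13.7-fold higher (adjusted p = 0.0048). LMO2 was dim on all arrays labelled MALT1 and at least 2.79-fold lower, and FBXO3, CAPRIN1, NAT10 and CAT fell by 0.69, 0.44, 0.88 and 0.37 on the log2 scale. ABTB2 rose by 0.75, and APIP and PDHX, the pair nearest to CD44, did not pass.

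**Figure D5:**
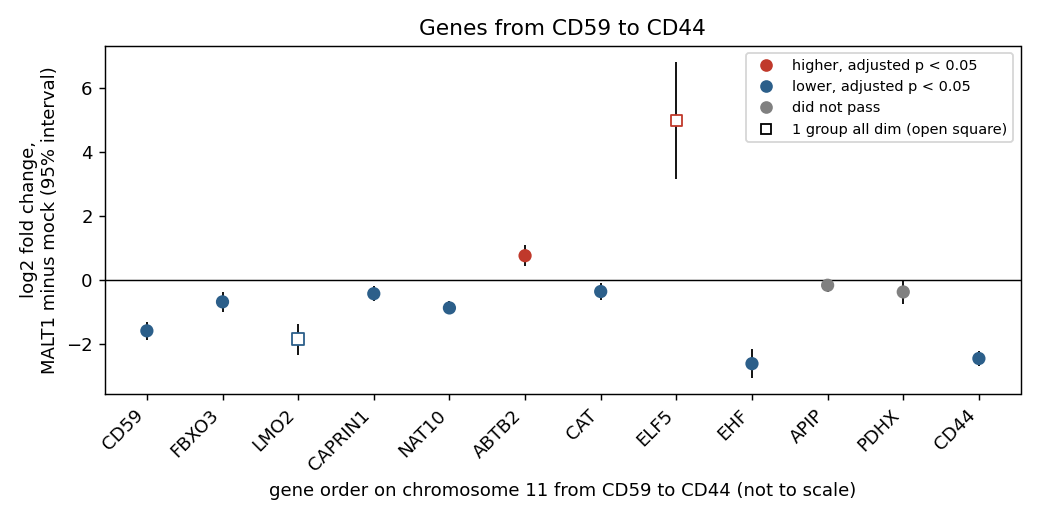
Log2 fold change, arrays labelled MALT1 minus arrays labelled mock, with 95% intervals (y axis), of the genes from CD59 to CD44 in their order on chromosome 11 (x axis, not to scale), 1 point per gene by its brightest probe set, n = 3 arrays per group. Open squares were dim on all arrays of 1 group. CD59, EHF and CD44 lie well below 0, ELF5 lies above 0, and APIP and PDHX, beside CD44, did not pass.

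The genes whose values ran most like those of 4 members across the 6 arrays were found by the Euclidean distance between log2 profiles, each centred on its own mean, among 9076 genes above 17.6 on at least 3 arrays. As the arrays fall into 2 groups, this measure mainly finds genes with a similar difference between the groups. Nearest to CD44 were MMP10, PROCR and EXT1, at distances of 0.10, 0.15 and 0.16 in log2 units, and they fell by 2.48, 2.40 and 2.45. NDUFS6, RIDA and ELOB were nearest to CD24 (0.06, 0.06 and 0.07), and RNF139, BPTF and TCF25 to EPCAM (0.09, 0.13 and 0.13). No gene ran as close to MUC1, whose nearest were GYG2, CXCL12 and ATP8A1 at 0.77, 0.88 and 0.91. MUC1, CXCL12 and ATP8A1 were dim on all arrays labelled mock, so scatter among dim signals enters these distances and the matches are uncertain.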

How the data were processed

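RNA of 6 samples was measured, 3 labelled MALT1 and 3 labelled mock, grouped by their titles. The values deposited by the authors are linear intensity values, 1 per probe set. Total RNA was isolated with Trizol and labelled with biotin, per the labels' protocols. No source used here gives the software. Each array has a mean of 500.1 to 500.2 after 2% is trimmed at each end. No detection call was used. Of 22277 probe sets, 62 controls were left out. Of the 22215 tested, 19064 had 1 gene symbol, 1043 several and 2108 none, and 19052 of the first kind matched the GRCh38.p14 gene table. A gene in a list took the probe set of highest mean signal.

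Groups were compared with limma 3.58.1 in R 4.3.3 (lmFit, eBayes, two-sided, group as the only term), tested on simulated data. A fold change on log2(signal + 1) understates the change of dim genes, and very low signals can also inflate it. A group dim on all 3 arrays has only a bound. The number of arrays limits the precision. The members, lists, motifs, named genes and dim level were chosen with earlier results of these data known. Named were all member probe sets, up to 4 genes per list with the smallest adjusted p, the 3 nearest profiles for 4 members, and further list genes and the chromosome 11 genes chosen after their values were seen. Markers of leukocytes, endothelium and fibroblasts had 1 of 6, 0 of 6 and 1 of 7 measured genes past the threshold (LCP1 and LUM, both lower), with PTPRC, VWF, CDH5, KDR and TIE1 dim on all 6 arrays.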

Additional observations from a re-analysis of the deposited data

How the results depend on the processing

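The 29 member probe sets were refitted under 12 alternatives: pseudocounts of 16 and 50, median centring, quantile normalization, the dimmer probe sets left out (25 of the 29 remained), the replicate number as a block, and each array left out. Over 344 such values, 324 kept their direction where called and their side of the threshold, 14 lost the call, 6 gained it and 0 changed sign with a call. All lost or gained calls were on MUC1 207847_s_at and 211695_x_at, both CD55 probe sets and CD44 216056_at. Every other call of CD44, CD24, EPCAM, MUC1 and CD59 was kept in all the alternatives that could be run. With the replicate block, 19 member probe sets passed in place of 22, with 207847_s_at (adjusted p = 0.0624) and 211695_x_at (adjusted p = 0.0659) of MUC1 and 201926_s_at of CD55 (adjusted p = 0.0581) no longer past the threshold, and 5808 of all probe sets passed in place of 7917. Deviations from the group means of same-numbered arrays correlated at 0.06, −0.003 and 0.06. The values for numbers 1 and 3 were the highest over all pairs, while MALT1 replicate 2 correlated best with mock replicate 1 (0.05). Correlations this near 0 cannot decide whether same-numbered arrays share more than a number. CD44 216056_at also passed with a pseudocount of 50 (log2 fold change −0.42). Without 1 array, 20 to 21 member probe sets passed (9 to 10 higher, 11 to 12 lower), 6165 to 7330 of all probe sets (3286 to 3573 higher, 2879 to 3757 lower) and 68 to 76 of the 157 list genes, of which 80 passed with all arrays. Without 1 array CD24 minus CD44 was 3.14 to 3.32, EPCAM minus CD44 3.75 to 3.82 and CD24 minus CD9 0.68 to 0.72. Each had an exact permutation p of 0.2. That is the smallest this test gives for 2 arrays against 3, as it doubles the p of the smaller tail. With a gene's probe sets averaged, CD24 minus CD9 was 0.61 in place of 0.69. Median centring shifted the median of all probe sets by −0.13, to −0.05. It moved every log2 fold change by the same amount, so that CD24 rose by 0.43 to 0.63, and CD9 and the 3 CD46 probe sets turned slightly negative without passing. Signal near 17.6 limits what can be said of PROM1, of the mock arrays for MUC1, and of CD44 216056_at.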
